A study of Mus musculus with 6 samples.

Results

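The mitochondrial ribosomal protein genes of mouse brain were taken as all protein-coding genes of GENCODE M21 whose symbol starts with Mrpl or Mrps, together with Dap3. This rule gave 79 genes of the 55450 annotated, of which 21951 are protein-coding. The large subunit is represented by 49 Mrpl genes and the small subunit by 30 genes, 29 Mrps genes and Dap3. Whole brain was taken from wild-type mice (WT) and from mice lacking TRMT1L (KO), with 3 libraries in each group. The compared genotypes answer which long RNAs differ in brain without TRMT1L, a relative of the tRNA guanosine methyltransferase TRMT1. The tissue label is brain for every library, and the labels name no sex, age, strain, litter, allele or batch, nor whether the animals were pooled. They call the 3 libraries of a group biological replicates. The p-values measure the spread between these libraries, which may be partly technical.

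Mitochondria keep a small genome of their own and translate its few messenger RNAs, which code for core subunits of the respiratory chain and ATP synthase, on a dedicated ribosome. The RNA of that ribosome is made in the organelle, whereas all of its proteins are encoded in the nucleus, made in the cytosol and imported. Some of the proteins descend from bacterial ribosomal proteins and others were added in the mitochondrial lineage. The small subunit reads the codons, and the large subunit joins amino acids and threads the product towards the inner membrane. Neurons rely heavily on oxidative phosphorylation, and inherited defects of several of these genes cause heart or brain disease.

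The promoters of 5 members are given here because each shows a feature described below: a shared start region, an AAGATGGC match just after the start, a CCGGAAG match just before it, and a match to the NRF1 palindrome. Mrps7 and Mrps26 also had 2 of the 3 smallest p-values for genotype. Each window runs 5′ to 3′ on the gene's strand from 250 bases before to 50 after the RefSeq start in GRCm38.p6. Capitals mark every match, on either strand, to the NRF1 palindrome (the capitals of Mrpl9), CCGGAAG (ETS family, which includes GABP), AAGATGGC (YY1), GGGCGG (SP family) and CCAAT (NF-Y).
Mrps7, chr11:115603890-115604189, plus strand: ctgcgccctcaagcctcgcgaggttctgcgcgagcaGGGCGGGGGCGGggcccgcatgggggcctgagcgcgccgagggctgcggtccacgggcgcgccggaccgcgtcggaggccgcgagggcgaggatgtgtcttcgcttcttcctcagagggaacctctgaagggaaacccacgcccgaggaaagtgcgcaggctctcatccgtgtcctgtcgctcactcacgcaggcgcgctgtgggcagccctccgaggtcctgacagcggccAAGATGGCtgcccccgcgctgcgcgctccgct
Mrps26, chr2:130563507-130563806, plus strand: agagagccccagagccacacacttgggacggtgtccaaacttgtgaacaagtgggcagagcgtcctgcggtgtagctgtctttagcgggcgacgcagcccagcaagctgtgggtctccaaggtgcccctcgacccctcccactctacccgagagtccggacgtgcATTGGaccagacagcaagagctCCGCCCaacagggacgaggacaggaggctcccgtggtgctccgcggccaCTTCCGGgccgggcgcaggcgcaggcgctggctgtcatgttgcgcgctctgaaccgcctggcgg
Mrpl9, chr3:94443086-94443385, plus strand: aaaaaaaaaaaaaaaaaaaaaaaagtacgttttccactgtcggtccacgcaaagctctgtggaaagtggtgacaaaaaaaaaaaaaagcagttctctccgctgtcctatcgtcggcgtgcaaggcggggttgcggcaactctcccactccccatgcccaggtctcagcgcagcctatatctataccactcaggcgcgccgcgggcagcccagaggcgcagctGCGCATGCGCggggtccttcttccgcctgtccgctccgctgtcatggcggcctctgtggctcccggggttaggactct
Mrps11, chr7:78782881-78783180, plus strand: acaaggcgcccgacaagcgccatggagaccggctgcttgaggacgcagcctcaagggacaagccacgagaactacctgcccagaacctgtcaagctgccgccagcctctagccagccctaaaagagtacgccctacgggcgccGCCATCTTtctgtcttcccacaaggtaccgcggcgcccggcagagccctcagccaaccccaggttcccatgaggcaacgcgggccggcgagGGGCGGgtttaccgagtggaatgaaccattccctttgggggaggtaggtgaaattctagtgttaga
Mrpl46, chr7:78783040-78783339, minus strand: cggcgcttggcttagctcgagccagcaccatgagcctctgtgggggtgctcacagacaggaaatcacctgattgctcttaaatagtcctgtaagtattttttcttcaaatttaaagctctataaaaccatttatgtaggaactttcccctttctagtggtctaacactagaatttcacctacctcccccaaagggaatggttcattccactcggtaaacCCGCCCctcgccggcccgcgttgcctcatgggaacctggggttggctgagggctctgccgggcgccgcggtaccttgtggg

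In Mrps7 the AAGATGGC match starts 18 bases after the RefSeq start, and 2 GGGCGG matches lie side by side upstream. In Mrps26 the CCGGAAG match lies on the opposite strand and starts 14 bases before the start. The NRF1 palindrome of Mrpl9 starts 28 bases before the start and reads the same on both strands. Mrps11, of the small subunit, and Mrpl46, of the large subunit, are transcribed away from each other from RefSeq starts 42 bases apart, so their windows share 141 bases. A match describes the letters of the window and is not shown to be a site.

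RefSeq promoters were matched for 69 of the 79 members. CCGGAAG occurred in 34.8% of the members' promoters (24 of 69), against 16.2% of the promoters of protein-coding genes tested and 11.0% of all 20592 promoters in the table. The 24 include Mrps12, Mrps21, Mrps26, Mrps33, the 3 Mrps18 genes, Mrpl18 and Mrpl27. AAGATGGC occurred in 17.4% (12 of 69), against 4.16% of protein-coding genes tested and 3.09% of all promoters. Within the 50 bases after the start it occurred in 8 members (11.6%), against 2.29% of protein-coding genes tested. The NRF1 palindrome was in 3 members (4.35%), Mrpl9, Mrpl32 and Mrpl39, against 1.88% of protein-coding genes tested and 1.18% of all promoters. All 3 belong to the large subunit.

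GGGCGG was in 49.3% of members, a share below the 62.4% of protein-coding genes tested and above the 42.7% of all promoters. Small subunit promoters held it in 65.4% (17 of 26) and large subunit promoters in 39.5% (17 of 43). CCAAT was close to the background, at 39.1%, 38.3% and 38.2%. The median GC content of the windows was 58.3% for members and 60.7% for protein-coding genes tested. These shares are descriptions, and no motif was tested for a link with genotype.

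The members are spread over 17 chromosomes, with 11 on chromosome 11 and 8 on chromosome 17. A protein-coding gene on the opposite strand started within 1000 bp of the start of 34 members (43.0%), 24 of the large and 10 of the small subunit. The share was 14.4% among protein-coding genes tested. For 21 of the 34 the distance was within 200 bp. These distances are between GENCODE gene starts, by which Mrps11 and Mrpl46 lie 412 bp apart, with the genes overlapping, and not 42 as between RefSeq starts. Several neighbours also serve mitochondria: Mrps12 lies 172 bp from Sars2, which charges mitochondrial serine tRNA, and Mrpl36 lies 29 bp from Ndufs6, a complex I subunit. Mrpl47 starts 615 bp from Ndufb5, another complex I subunit, and Mrpl43 starts 779 bp from Twnk, the mitochondrial DNA helicase. Mrpl49 pairs with Fau, which encodes a cytosolic ribosomal protein fusion, at 59 bp, and Mrpl32 with the proteasome gene Psma2 at 75 bp.

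The deposited values are whole-number read counts, and 31201119 to 36145961 of them per library fell in genes on the counted strand. Trmt1l, the targeted gene, stood at 34.4 ± 1.26 CPM (counts scaled to a common library size) in WT and 2.87 ± 0.171 in KO (SD, n = 3). Its log2 fold change, KO over WT, was -3.58 (SE 0.0813, edgeR quasi-likelihood test, Benjamini-Hochberg adjusted p = 6.95e-10), in accord with the labels in all 6 libraries. Reads in no gene on the counted strand took 50.33 to 52.16% of mapped reads in WT and 48.62 to 49.82% in KO. Neuronal markers (Snap25, Syt1, Rbfox3, Tubb3) summed to 3180 to 3320 CPM in WT and 3050 to 3250 in KO, while 4 markers of liver, pancreas and muscle summed to at most 0.687. The summed CPM of 4 choroid plexus markers was 296 to 348 in WT and 354 to 425 in KO, that of 4 oligodendrocyte markers 3310 to 3710 and 2810 to 3380. Astrocyte markers summed to 889 to 928 and 865 to 1030, microglial ones to 83.5 to 99.7 and 73.6 to 94.3, vascular ones to 158 to 168 and 151 to 181, and blood ones to 107 to 147 and 96.5 to 243. Their part in the results below was not tested.

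Of the 79 members 78 passed the low-count filter, with 104 to 1961 counts per library and mean abundances from 3.99 CPM (Mrps36) to 54.7 CPM (Mrpl3). The exception was Mrpl53 (ENSMUSG00000030037.9, chromosome 6, 83109040 to 83109939), with 0 counts in every library. Of its 790 exonic bases 695 also belong to Gm42688 on the same strand, and a read falling in both genes was not counted for either, so a count of 0 does not show that Mrpl53 is silent. Mrpl3, Mrpl33, Mrpl51, Mrps6, Mrps18c, Mrps24 and Mrps34 also share exonic bases with another gene on their strand, and their counts leave out the reads there. Reads on the opposite strand made up 65.1% of both strands' reads at Mrps25, 48.4% at Mrpl47 and 40.1% at Mrpl48. Only the sense strand was used in the main fit, and unstranded counts served as an alternative. The 5 named processed pseudogenes, copies of Mrpl23, Mrpl48 and Mrps36, together drew 10 to 16 counts per library.

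Levels between genes are compared as CPM per kilobase of merged exons, averaged over the 6 libraries. The median was 6.28 over members and 5.18 over protein-coding genes tested, and 54 of 78 members lay above the latter. This order rests on the division by length: the median CPM was 17.9 for members and 22.3 for protein-coding genes tested, whose median merged exon lengths were 2542 and 4442 bases. The large subunit had a median of 7.30 over 48 genes and the small subunit 5.79 over 30. Members spanned a 31.8-fold range, from Mrps10 at 0.859 to Mrpl41 at 27.3, on this length.

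Mrpl41, a large subunit protein added in the mitochondrial lineage, had the highest level in the large subunit, with 27.8, 26.01 and 27.2 CPM per kb in WT replicates 1 to 3 and 28.3, 28.2 and 26.2 in KO. Mrpl27, a homologue of a bacterial protein near the peptidyl transferase centre, followed at 17.8, 17.3 and 16.4 in WT and 17.8, 18.3 and 17.6 in KO. Mrpl18 averaged 15.0. The 3 do not overlap one another in any library.

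The small subunit was led by Mrps21, at 22.9, 20.9 and 23.5 CPM per kb in WT and 22.8, 24.1 and 23.4 in KO. Mrps12, whose bacterial homologue lines the decoding centre, stood at 16.96, 15.1 and 18.4 in WT and 18.4, 19.5 and 17.4 in KO, a range that overlaps that of Mrpl27. Mrps15 averaged 10.9. At the low end lay Mrps10 at 0.859, Mrps30 at 2.72 and Mrps35 at 2.82 in the small subunit, and Mrpl33 at 1.40, Mrpl23 at 2.19 and Mrpl13 at 2.25 in the large subunit. Dap3, a GTP-binding small subunit protein first described in apoptosis, averaged 6.50.

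**Figure D1:**
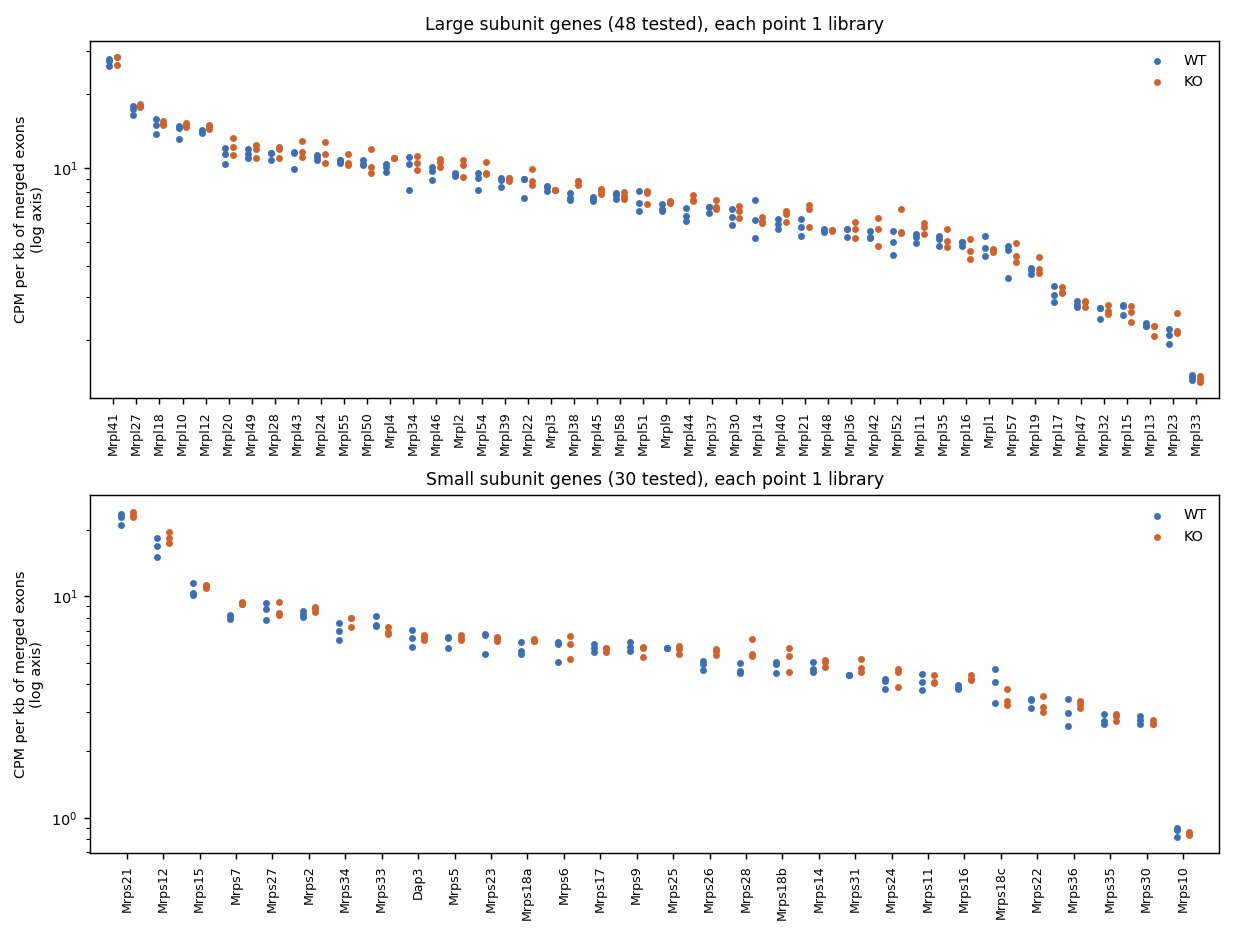
Level of each tested member in every library, as CPM per kilobase of merged exons on a log axis, with 48 large subunit genes above and 30 small subunit genes below, ordered by mean. The WT and KO points of a gene lie close together beside the spread between genes, which runs from 0.859 for Mrps10 to 27.3 for Mrpl41.

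This order depended on the length used. Mrpl33 has 7326 merged exonic bases, but its protein-coding transcripts have a median length of 478, and on that length it moved from rank 48 to rank 11 of the large subunit. Dap3 moved from rank 9 to rank 1 of the small subunit, at 51.8 CPM per kb of coding transcript. Mrpl23 moved from rank 47 to 19 and Mrpl13 from 46 to 15 of the large subunit, and Mrps10 from 30 to 22 of the small subunit. The range over members was then 14.3-fold, from Mrpl47 at 3.68 to Mrpl48 at 52.5. Mrpl41 changed from rank 1 to rank 2 and Mrps21 from rank 1 to rank 3. The medians by subunit kept their order, 13.5 for the large and 10.9 for the small subunit.

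Summed over its genes, the large subunit reached 385.0, 373.6 and 378.8 CPM per kb in WT replicates 1 to 3 and 397.2, 398.2 and 396.5 in KO. The small subunit reached 195.7, 181.5 and 193.4 in WT and 198.3, 200.6 and 198.3 in KO. Every KO sum lay above every WT sum in both subunits, and WT replicate 2 was the lowest library in each. The small subunit's summed CPM, not divided by length, did not overlap either, at 547.3, 518.0 and 537.3 in WT and 550.1, 554.5 and 550.5 in KO. Some other summaries of it did overlap. Its share of counts in genes was 0.0551, 0.0520 and 0.0535% in WT and 0.0551, 0.0545 and 0.0551% in KO. Its median level per kb of coding transcript was 11.37, 10.48 and 11.36 in WT and 10.81, 11.84 and 10.65 in KO. The large to small ratio was 1.97, 2.06 and 1.96 in WT and 2.00, 1.99 and 2.00 in KO, so that the means, 1.995 ± 0.0551 and 1.996 ± 0.00959 (SD, n = 3), differed by less than the spread between libraries. With coding transcript lengths the ratio was 1.724 in WT and 1.745 in KO. Structures of the mammalian mitoribosome place the proteins of Mrps30 and Mrps18a in the large subunit, and Mrps36 is now known as a part of the 2-oxoglutarate dehydrogenase complex. With these 3 genes reassigned the ratio was 2.171 and 2.175.

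**Figure D2:**
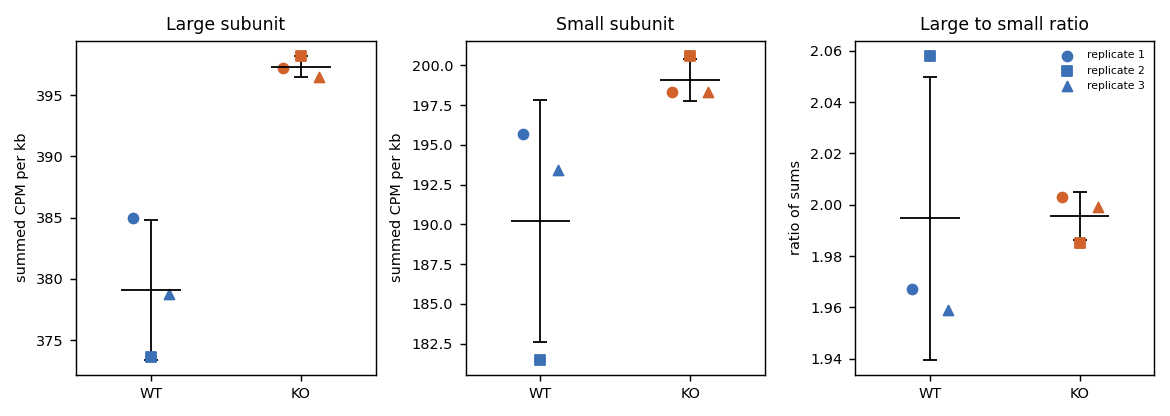
Summed CPM per kilobase of merged exons over the large and the small subunit genes, and their ratio, in each library, with the group mean and SD (n = 3). The axes do not start at 0. All KO sums lie above all WT sums, while the ratio has the same centre in both groups, and WT replicate 2 has the lowest sums and the highest ratio.

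No member passed the test between KO and WT at an adjusted p under 0.05 (0 of 78, edgeR quasi-likelihood test with Benjamini-Hochberg adjustment over 21237 genes). Over all genes tested 0.00942% passed, which is 2 genes. The lowest adjusted p of a member was 0.576, shared by Mrps7, Mrpl38 and Mrps26. At an unadjusted p under 0.05 stood 5 members (6.41%), all with higher estimates in KO, against 7.92% of all genes tested, with 4.54% higher and 3.38% lower. Among protein-coding genes alone the share was 8.81%, with 5.92% higher and 2.89% lower. DESeq2 without its independent filtering called 0 members (0.0706% of genes), with 4 at an unadjusted p under 0.05 (5.46% of genes). The limma-voom fit called 0 members (0.00942% of genes), with 5 at an unadjusted p under 0.05 (7.68% of genes). In bulk RNA, fewer cells of a type and less RNA per cell cannot be told apart.

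Mrps7 encodes the homologue of a bacterial protein in the head of the small subunit. Its abundance was 17.01, 16.3 and 16.9 CPM in WT and 19.2, 19.1 and 19.6 in KO, without overlap. The log2 fold change was 0.21 (SE 0.0639, unadjusted p = 0.00773, edgeR). It was between 0.19 and 0.22 when any 1 library was left out, and 0.15 after a correction for GC content (unadjusted p = 0.0371, and 0.0581 with the replicate block added, edgeR).

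Mrpl38, a protein of the large subunit's central protuberance that arose in mitochondria, had 20.1, 18.9 and 19.3 CPM in WT and 22.6, 22.7 and 21.8 in KO. The groups do not overlap, and the log2 fold change was 0.20 (SE 0.0626, unadjusted p = 0.00798, edgeR). After GC correction it was 0.11, with an unadjusted p of 0.106 in edgeR's test. The gene's transcripts have 58.6% GC.

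Mrps26, a small subunit protein without a bacterial homologue, had 21.5, 22.1 and 20.2 CPM in WT and 24.8, 23.6 and 25.1 in KO. All KO values again lay above all WT values. The log2 fold change was 0.20 (SE 0.0641, unadjusted p = 0.00887, edgeR) and 0.18 after GC correction.

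Mrpl44, a protein with a ribonuclease III fold whose mutation causes infantile cardiomyopathy, had 11.4, 10.02 and 10.5 CPM in WT and 12.1, 12.2 and 12.8 in KO. The groups do not overlap, with KO replicate 1 nearest to WT. The log2 fold change was 0.22 (SE 0.0837, unadjusted p = 0.0237, edgeR). Without WT replicate 2 the unadjusted p was 0.0842 in edgeR's test, without WT replicate 3 it was 0.0568, and without KO replicate 3 it was 0.0646.

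Mrps28 had the largest estimate and few reads, 3.93, 3.54 and 3.62 CPM in WT and 4.20, 4.31 and 5.01 in KO. KO replicate 3 was the highest library. The log2 fold change was 0.29 (SE 0.126, unadjusted p = 0.0438, edgeR), and without KO replicate 3 it was 0.20 with an unadjusted p of 0.164. It lost an unadjusted p under 0.05 also without WT replicate 2 (0.109) or WT replicate 3 (0.0951), in edgeR's test. With all libraries it was above 0.05 too with unstranded counts (0.0517), total-count scaling (0.0535), no filter (0.0549), protein-coding genes alone (0.0528), TMM on protein-coding genes (0.0511), the replicate block (0.0688), GC correction (0.0789) and DESeq2 (0.107).

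**Figure D3:**
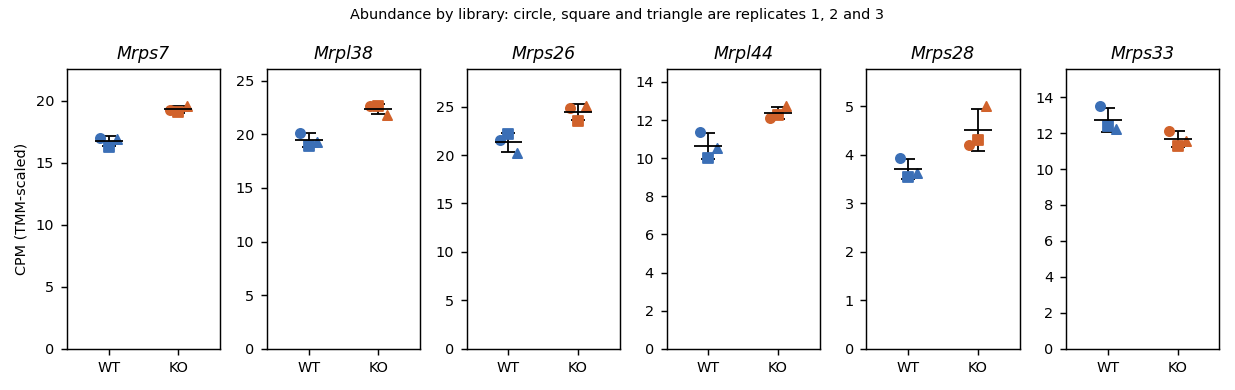
Abundance in TMM-scaled CPM of the 5 members with an unadjusted p under 0.05 and of Mrps33, in each library, with the group mean and SD (n = 3) on axes from 0. In the first 5 genes all KO points lie above all WT points, and in Mrps33 all lie below. The differences are small beside the level itself.

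The groups did not overlap in 13 members that were higher in KO (Mrpl4, Mrpl9, Mrpl11, Mrpl12, Mrpl38, Mrpl44, Mrpl45, Mrps7, Mrps16, Mrps18a, Mrps26, Mrps28 and Mrps31) and in 1 that was lower, Mrps33. Without regard to direction, the groups did not overlap in 14.4% of all genes tested. Of these genes 7.46% were higher and 6.97% lower without overlap, of protein-coding genes 9.29% and 6.18%. Mrpl4, a homologue of a bacterial protein of the exit tunnel wall, had a log2 fold change of 0.13 (SE 0.0584, unadjusted p = 0.05, edgeR), and 0.037 after GC correction. Mrpl12, the stalk protein that contacts translation factors, had 21.4, 21.9 and 21.7 CPM in WT and 22.0, 22.7 and 22.9 in KO. Its log2 fold change of 0.058 changed sign after GC correction, to -0.0079. Over all alternatives the estimate of Mrpl12 ran from -0.0081 to 0.12. Mrps33, a mitochondrial addition to the small subunit, had 13.5, 12.4 and 12.2 CPM in WT and 12.1, 11.3 and 11.6 in KO, a log2 fold change of -0.13 (SE 0.0816, unadjusted p = 0.146, edgeR). KO replicate 1 and WT replicate 3 were nearly level. With 1 library left out the estimate ran from -0.16 (without KO replicate 1) to -0.080 (without WT replicate 1).

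The lowest estimate was that of Mrps18c at -0.21 (SE 0.149, unadjusted p = 0.182, edgeR), with 5.03, 3.54 and 4.41 CPM in WT and 3.63, 3.48 and 4.12 in KO. The groups overlap, and WT replicate 1 is the highest library. Without WT replicate 2 the estimate was -0.33 (unadjusted p = 0.0447, edgeR), and without WT replicate 1 it was -0.086. Mrps18a, Mrps18b and Mrps18c are paralogues that share the family of bacterial S18. Mrps18a stood at 6.06 and Mrps18b at 5.05 CPM per kb, with log2 fold changes of 0.13 (SE 0.0663) and 0.12 (SE 0.106), and Mrps18c stood at 3.75. With 1 library left out Mrps18b ran from 0.038 (without KO replicate 1) to 0.21 (without KO replicate 2, unadjusted p = 0.0454, edgeR). Mrps18a ran from 0.094 (without WT replicate 3) to 0.18 (without WT replicate 1, unadjusted p = 0.0281, edgeR). Over all alternatives the lowest estimate of Mrps18a was 0.076. Their estimates thus pointed both ways, with none past the test at an adjusted p under 0.05. The other members with the smallest p among lower estimates were Mrpl16 (-0.077), Mrps9 (-0.058), Mrpl13 (-0.058) and Mrpl15 (-0.057), none with an unadjusted p under 0.368 in edgeR's test. Single libraries moved all 4 estimates. Mrpl16 ran from -0.15 (without KO replicate 3) to -0.017 (without KO replicate 2), and Mrps9 from -0.088 (without WT replicate 2) to -0.015 (without KO replicate 2). Mrpl13 ran from -0.083 (without KO replicate 1) to -0.013 (without KO replicate 3), and Mrpl15 from -0.11 (without KO replicate 3) to -0.0022 (without KO replicate 1).

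Dap3 had 45.6, 42.1 and 38.1 CPM in WT and 43.2, 41.2 and 42.6 in KO, with the KO values inside the WT range. Its log2 fold change was 0.013 (SE 0.067, unadjusted p = 0.848, edgeR), and it changed sign after GC correction and without some libraries. Mrps12 had 0.13 (SE 0.0833), Mrps30 had -0.044 (SE 0.0667) and Mrps36 had 0.11 (SE 0.134). With 1 library left out, Mrps12 ran from 0.062 (without WT replicate 2) to 0.20 (without WT replicate 3, unadjusted p = 0.0466, edgeR). Mrps36 ran from 0.023 to 0.22 without the same libraries, and Mrps30 from -0.073 (without WT replicate 2) to -0.012 (without WT replicate 1). The shared start region of Mrps11 and Mrpl46 went with log2 fold changes of 0.026 (SE 0.0979) and 0.13 (SE 0.0783), neither past the test.

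The estimates of the members were mostly above 0 and small. The median log2 fold change was 0.059 over 78 members, with 63 of 78 above 0 (80.8%). Over all genes tested the median was 0.0001 with 50.1% above 0, and over protein-coding genes 0.015 with 55.5% above 0. The middle 50% of members lay between 0.013 and 0.11. The standard error of a member ran from 0.0482 to 0.149 with a median of 0.076.

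By subunit, the median was 0.059 in the large subunit (41 of 48 above 0, 2 with an unadjusted p under 0.05) and 0.052 in the small subunit (22 of 30 above 0, 3 with an unadjusted p under 0.05). For comparison, 7.92% of all genes tested and 8.81% of protein-coding genes had an unadjusted p under 0.05 (edgeR). The difference between subunits was not tested, since genes are not replicates. The small subunit median was 0.026 without WT replicate 2 and 0.080 without WT replicate 3. Of 18 mitochondrion-specific large subunit genes tested all 18 had estimates above 0 (median 0.072), against 23 of 30 with a bacterial homologue (0.055). In the small subunit the order was the other way, 8 of 12 specific (0.018) and 14 of 18 with a bacterial homologue (0.066). These classes also differ in median GC content, 51.5 (specific) and 50.3% (bacterial) in the large and 47.2 and 51.3% in the small subunit. Their median exon lengths, in the same order, were 2324, 2660, 3641 and 2130 bases. The part of GC content and length in these orders was not tested.

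**Figure D4:**
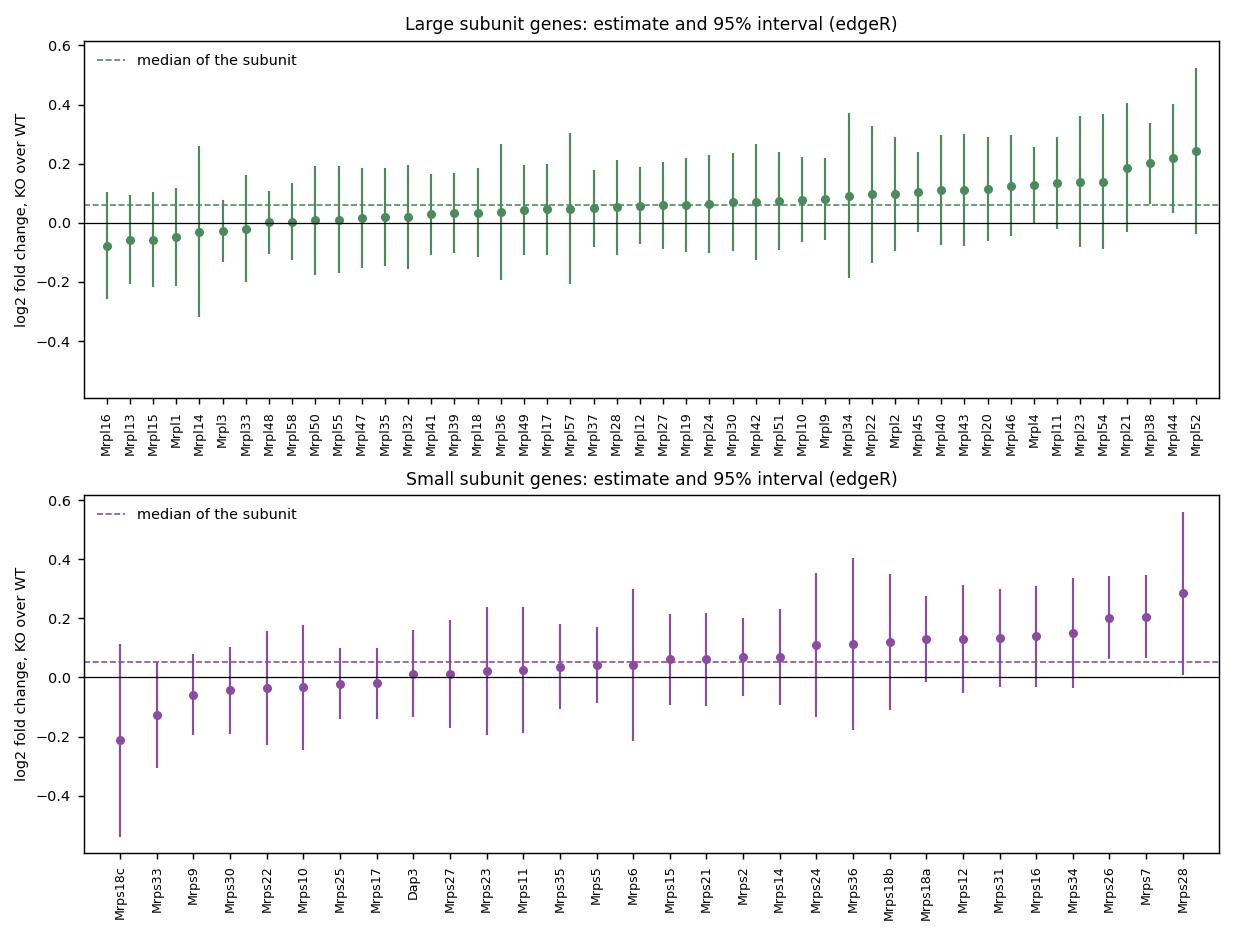
Log2 fold change (KO over WT) of the 48 large and 30 small subunit genes tested, with its 95% interval from edgeR, ordered by value; dashed lines mark the subunit medians of 0.059 and 0.052. Of the 78 intervals 73 include 0, and Mrps18c and Mrps28 lie at the ends.

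The intervals bound what the libraries could miss. For 75 of 78 members the 95% interval, not adjusted for the number of genes, lay within 0.5 log2 units of 0 on both sides, a change of at most 41.4% upwards. The highest upper bound was 0.56 for Mrps28 and the lowest lower bound -0.54 for Mrps18c. The interval excluded 0 in 5 members.

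Per library, the members' share of counts in genes was 0.145, 0.140 and 0.141% in WT replicates 1 to 3 and 0.147, 0.145 and 0.147% in KO. WT replicate 1 and KO replicate 2 were level on this measure. The median deviation of a member from its own mean over the 6 libraries, in log2 units, was 0.0044, -0.048 and -0.018 in WT and 0.022, 0.037 and 0.023 in KO. Protein-coding genes as a whole gave -0.0064, -0.0058 and -0.0021 in WT and 0.0052, 0.0048 and 0.010 in KO. The members were thus lowest in WT replicate 2, and WT replicate 1 was nearest to KO.

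Estimates moved with GC content. Among the 12 members whose transcripts have under 45% GC the median log2 fold change was 0.014 (7 above 0), and among the 25 with 45 to 50% GC it was 0.034 (16 above 0). It was 0.079 among 27 members with 50 to 55% (27 above 0) and 0.12 among 14 with 55% or more (13 above 0). The other protein-coding genes gave -0.047, -0.0084, 0.036 and 0.086 in the same bands, with 25.4, 45.1, 66.0 and 81.1% above 0. The members' median lay above that of the other genes in each band. Pearson's r between GC content and log2 fold change was 0.53 (Spearman's rho 0.53) over 78 members and 0.33 (rho 0.45) over 15140 other protein-coding genes, as a description across genes that share the 6 libraries.

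**Figure D5:**
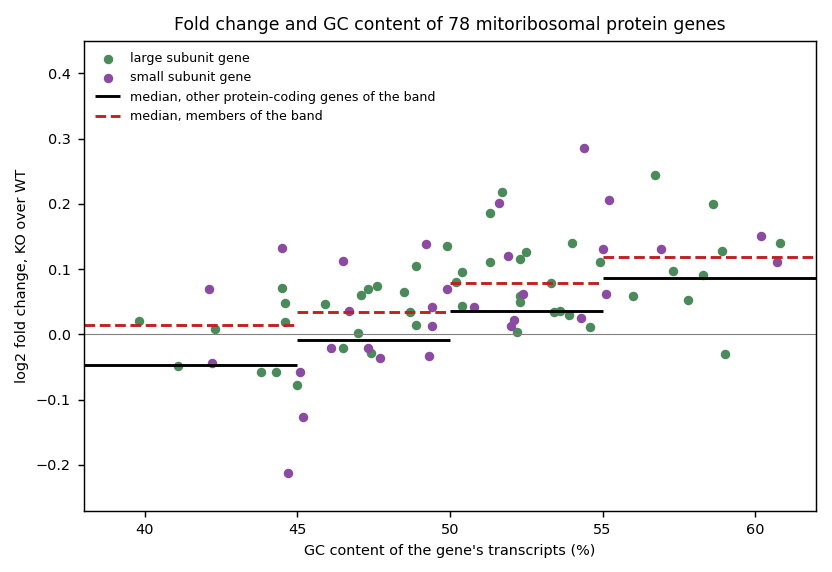
Log2 fold change (KO over WT) of the 78 members tested against the GC content of their transcripts in percent, with the medians of members (dashed) and of other protein-coding genes (solid) in 4 bands. Both sets of medians climb with GC content, and the members' median lies above the other in each band.

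With a smooth correction for GC content in each library, the median of the members was 0.039, with 57 of 78 above 0, against 0.0072 and 54.1% for protein-coding genes. The large subunit then had 0.041 and the small subunit 0.031. The 4 members with an unadjusted p under 0.05 after this correction were Mrpl44, Mrps7, Mrps26 and Mrps31 (edgeR), with 4.23% of all genes at that threshold. Exon length showed the opposite slope: the 15 members with 5000 or more exonic bases had a median of -0.021 (6 above 0), and the 19 with under 1500 had 0.091 (17 above 0). Other protein-coding genes in these bands gave -0.0021 and 0.055. Correcting for length alone left the members' median at 0.055.

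Of the 34 neighbours that start head to head with a member 31 were tested, with 22 estimates above 0, a median of 0.061, none with an adjusted p under 0.05 in edgeR's test and 3 with an unadjusted p under 0.05. These 3 were Pnpla7, beside Mrpl41, at 0.38 (SE 0.116), Apba3, beside Mrpl54, at 0.32 (SE 0.102) and Fau, beside Mrpl49, at 0.16 (SE 0.0685). They were named after their values were seen. Of all protein-coding genes tested 55.5% had estimates above 0 and 8.81% had an unadjusted p under 0.05, so 3 of 31 is near that share. Mrps11 and Mrpl46 count among the 31 as each other's neighbour, and the neighbours were not tested against the members.

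Mitoribosomal proteins whose symbols do not start with Mrp gave 0 adjusted calls among 4 genes in edgeR's test. Aurkaip1 had 21.4, 22.7 and 21.8 CPM in WT and 23.5, 25.7 and 24.8 in KO, without overlap, and a log2 fold change of 0.17 (SE 0.0636, unadjusted p = 0.022, edgeR). Gadd45gip1 had 0.16 (SE 0.0789), Chchd1 0.11 (SE 0.135) and Ptcd3 -0.029 (SE 0.0486). Adding the 4 and leaving out Mrps36 gave a median of 0.059 over 81 genes.

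Among 25 genes for assembly of the mitoribosome and modification of its RNA, 0 passed at an adjusted p under 0.05 in edgeR's test, 18 estimates were above 0 and the median was 0.046. Mettl17, an assembly factor of the small subunit, had the smallest p, with 23.0, 22.7 and 21.8 CPM in WT and 24.95, 26.94 and 25.95 in KO, and a log2 fold change of 0.21 (SE 0.0614, unadjusted p = 0.00613, edgeR). The groups do not overlap. Among 15 mitochondrial translation factors 0 passed, 9 estimates were above 0 and the median was 0.026. Tufm, the elongation factor that brings aminoacyl-tRNA to the mitoribosome, had 35.8, 33.9 and 32.6 CPM in WT and 36.6, 40.3 and 37.3 in KO, and a log2 fold change of 0.16 (SE 0.0613, unadjusted p = 0.0255, edgeR). Of 9 regulators of nuclear genes for mitochondria 0 passed, 7 had estimates above 0 and the median was 0.098. Esrra, a nuclear receptor that partners with PGC-1 coactivators, had 31.7, 33.2 and 33.8 CPM in WT and 35.2, 37.1 and 36.3 in KO (log2 fold change 0.14, SE 0.0554, unadjusted p = 0.0282, edgeR).

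Of 13 protein genes of the mitochondrial genome 10 passed the low-count filter, none passed at an adjusted p under 0.05 in edgeR's test, 8 estimates were below 0 and the median was -0.11. Of the 10, mt-Co2, mt-Co3 and mt-Atp6 had only 20 to 73 counts per library, and their SEs were 0.223, 0.244 and 0.273. All 5 with an unadjusted p under 0.05 (mt-Nd1, mt-Nd2, mt-Nd4, mt-Nd5 and mt-Co1, edgeR) had lower estimates. Over all genes tested the share was 7.92%, with 3.38% lower. The 5 lie on the same strand of the mitochondrial genome and share the 6 libraries, so they are not independent observations. The smallest p was that of mt-Nd2, a complex I subunit, with 2063, 1978 and 2076 CPM in WT and 1791, 1869 and 1732 in KO (log2 fold change -0.18, SE 0.0398, adjusted p = 0.55, edgeR). The RNA of the small mitoribosomal subunit, mt-Rnr1, had 91.2, 75.7 and 55.9 CPM in WT and 61.2, 56.9 and 69.2 in KO, with overlap (log2 fold change -0.25, SE 0.137, unadjusted p = 0.0923, edgeR). The RNA of the large subunit, mt-Rnr2, had -0.055 (SE 0.107). Mean CPM in WT was 74.3 for mt-Rnr1, 2038 for mt-Rnr2 and 10260 for mt-Co1. How much of each ribosomal RNA was kept in library preparation was not tested, so the values of mt-Rnr1 and mt-Rnr2 need not follow their levels in brain. The GC content of mt-Nd2, mt-Rnr1 and mt-Rnr2 was 35.7, 35.8 and 35.4%, below that of every member, and its part in these values was not tested.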

How the data were processed

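Whole mouse brain RNA longer than 200 bp was sequenced with an Illumina TruSeq total RNA kit, per the labels' protocols, in 3 WT and 3 KO libraries. The authors deposited raw read counts per gene in the layout of the aligner STAR, and the submitters' processing notes name cutadapt 1.9.1 and STAR 2.7.0f. The build and annotation are not given in the sources used here. All 55450 gene identifiers match GENCODE M21 (GRCm38), which supplied names, exons and GC content. The counted strand held 94.64 to 94.76% of stranded counts. Reads in no gene on that strand (48.62 to 52.16% of mapped reads), in several places or in several genes were left out.

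Genes were filtered with filterByExpr, scaled with TMM and tested with edgeR 4.0.16 (quasi-likelihood, genotype as the only factor) in R 4.3.3, with Benjamini-Hochberg adjustment over all genes tested. The biological coefficient of variation was 7.13%. The code was tested on simulated data. Alternatives used DESeq2 1.42.0 and limma-voom (limma 3.58.1, prior count 2). CPM are TMM-scaled. SE is the log2 fold change divided by the square root of F. Promoters are RefSeq's, GRCm38.p6.

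The members and all lists were chosen with earlier results of these data known, so their direction is not independent evidence. Named genes are Trmt1l, Dap3, the 3 highest and 3 lowest levels per subunit, the 6 smallest p in each direction, the Mrps18 genes, Mrps30, Mrps36, Mrpl12, Mrps12, Mrpl53, the 4 subunits with other symbols, and the smallest p of each other list with mt-Rnr1 and mt-Rnr2. Other genes named were chosen after their values were seen. Protein sequences were not analysed here.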

Additional observations from a re-analysis of the deposited data

How the results depend on the processing

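No member was called at an adjusted p under 0.05 under any alternative run: unstranded counts, DESeq2 size factors or total counts for scaling, no filter, a mean count of at least 50, DESeq2, limma-voom, protein-coding genes alone, the replicate block, GC and length corrections, each library left out, and the widened membership. Without the filter 298 genes were called in all, again with 0 members, and the lowest adjusted p of a member was 0.342 (edgeR). DESeq2's independent filtering left an adjusted p to 1 member. Replicate numbers did not pair the libraries (correlations of deviations 0.040, -0.031 and -0.058), and the replicate block gave 4 members with an unadjusted p under 0.05 (6.85% of all genes) and a median of 0.058.

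GC correction gave medians of 0.0386 (members) and 0.0406 (large subunit). With the replicate block it gave 0.0417 and 3 members with an unadjusted p under 0.05 (3.72% of all genes). GC and length correction together, chosen after seeing the data, gave 0.0434 for the large subunit. Leaving out each library gave 3 to 7 such members (3 without KO replicate 3), with 5.50 to 8.58% of all genes, and medians of 0.0419 to 0.0693 (members), 0.0485 to 0.0669 (large subunit) and 0.0261 to 0.0795 (small subunit). TMM on protein-coding genes, also chosen after seeing the data, gave 0.048 for the members against 0.0037 for protein-coding genes.

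The ratio of subunits was 1.724 (WT) and 1.745 (KO) with coding transcript length, 2.171 and 2.175 by structure, and 1.947 and 1.944 from unstranded counts. It ran from 1.963 to 2.013 (WT) and 1.992 to 2.001 (KO) with each library left out.

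Of 560 single-gene values under alternatives 21 changed sign, none of them past the test. In the order GC correction, with replicate block, and with length, they were Dap3 (-0.0114, -0.0083, -0.0151), Mrpl41 (-0.0151, -0.0151, -0.0069), Mrpl33 (0.0051, 0.0051, 0.0010), Mrps30 (0.0132, 0.0139, 0.0095) and Mrpl12 (-0.0079, -0.0081, -0.0036). Mrpl18 gave -0.0053 and -0.0032 in the first 2 and -0.0578 from unstranded counts. With each library left out Dap3 ran from -0.0502 to 0.0791 and Mrpl18 from -0.0156 to 0.0815. The cause was not tested. With 3 libraries a group and a median SE of 0.076, changes of a few percent were not detectable. Larger estimates also failed to pass: Mrps7, 15.3% higher in KO, had an adjusted p of 0.576 in edgeR's test. Mrps28, 21.8% higher in KO, had an adjusted p of 0.622 in the same test.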
